A study of Arabidopsis thaliana with 4 samples.

Results

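The first 20 plates of the TA series of a chromatin immunoprecipitation tiling array (ChIP-chip) hold 1912 tiles, which is 8.81% of the 21707 tiles with a value. They were taken by their ID, which consists of the series TA, a plate number of 20 or lower, a row letter from A to H and a column number, and all 1912 had a value in every column of the deposited table. They were chosen by measured values too, since the end at plate 20 was selected on the plates' median log ratios: the following TA plates, 21 to 28, have low ones. The level of these tiles and their contrast with those plates are therefore descriptions, and no test of them is given. The mark measured was histone H3 acetylated at lysine 56 (H3K56ac), in Col-0 seedlings of Arabidopsis thaliana. The seedlings had an age of 10 days per the labels, received no treatment and came from liquid culture at 22 °C with 16 hours of light a day. DNA immunoprecipitated (IP) with an antibody against H3K56ac and input DNA, taken before that step, were amplified and hybridised together, one in Cy3 and the other in Cy5. Preparations I and II, called replicates 1 and 2 here, were each hybridised to 2 arrays with the dyes swapped.

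The nucleosome wraps DNA around a core of histones, and lysine 56 of H3 lies on the lateral surface of that core, close to where the DNA enters and leaves it. In budding yeast H3K56ac marks newly made histone H3 that is placed on DNA behind the replication fork and during histone exchange at promoters. In plants the mark is known from actively transcribed genes. Whole seedlings mix many cell types, so a ratio at a tile is an average over all of them.

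Each value is a deposited log ratio of the IP and input channels with the median over all tiles of the same replicate taken off, and a difference of 1 is called 1 log unit. The sources used here give neither the log base nor the numerator, so "above" and "below" refer to the deposited ratio and not to more or less of the mark. The dye-swapped arrays of a preparation had the same value at each of the 21707 tiles, so n = 2 throughout. The labels do not say whether the preparations came from separate cultures. Nor do the files used here pair tiles with genes or positions. For that reason no gene, coordinate or sequence is given, and distances are counted in wells of the ID order, 12 to a row and 96 to a plate.

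The TA tiles of plates 1 to 20 lay slightly above the array median. Their median was 0.116 log units in replicate 1 and 0.129 in replicate 2. The middle 50% of tiles ran from −0.228 to 0.608 in the mean of both replicates, and the distribution had its longer tail above, with a 5th percentile of −0.582, a 95th of 1.42 and a skewness of 0.591. The sign of the level depended on the zero point, since the median was −0.712 with the ratios as deposited. That shift moves every tile of the array by the same constant and leaves the order of tiles within a replicate as it is. The correlation of the replicates across these tiles was 0.905 (Pearson) and 0.882 (Spearman), across tiles that share both preparations and are not independent.

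In a fit across all tiles (limma, two-sided, adjusted p of 0.05, tested against the array median) 756 of the 1912 tiles passed above the median, or 39.5%, against 33.3% of all tiles. Another 394 passed below it, or 20.6%, against 30.9% of all tiles. The remaining 762 did not pass. These shares follow from where the plates were divided and say nothing beyond that. A call was close to a fixed cutoff on the mean, since the smallest absolute mean that passed was 0.281. At 7 of the called tiles the replicates lay on different sides of the median, and 4 of these tiles were in plate 1. Over the whole array there were 45 such tiles, with 7227 called above and 6716 below.

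**Figure D1:**
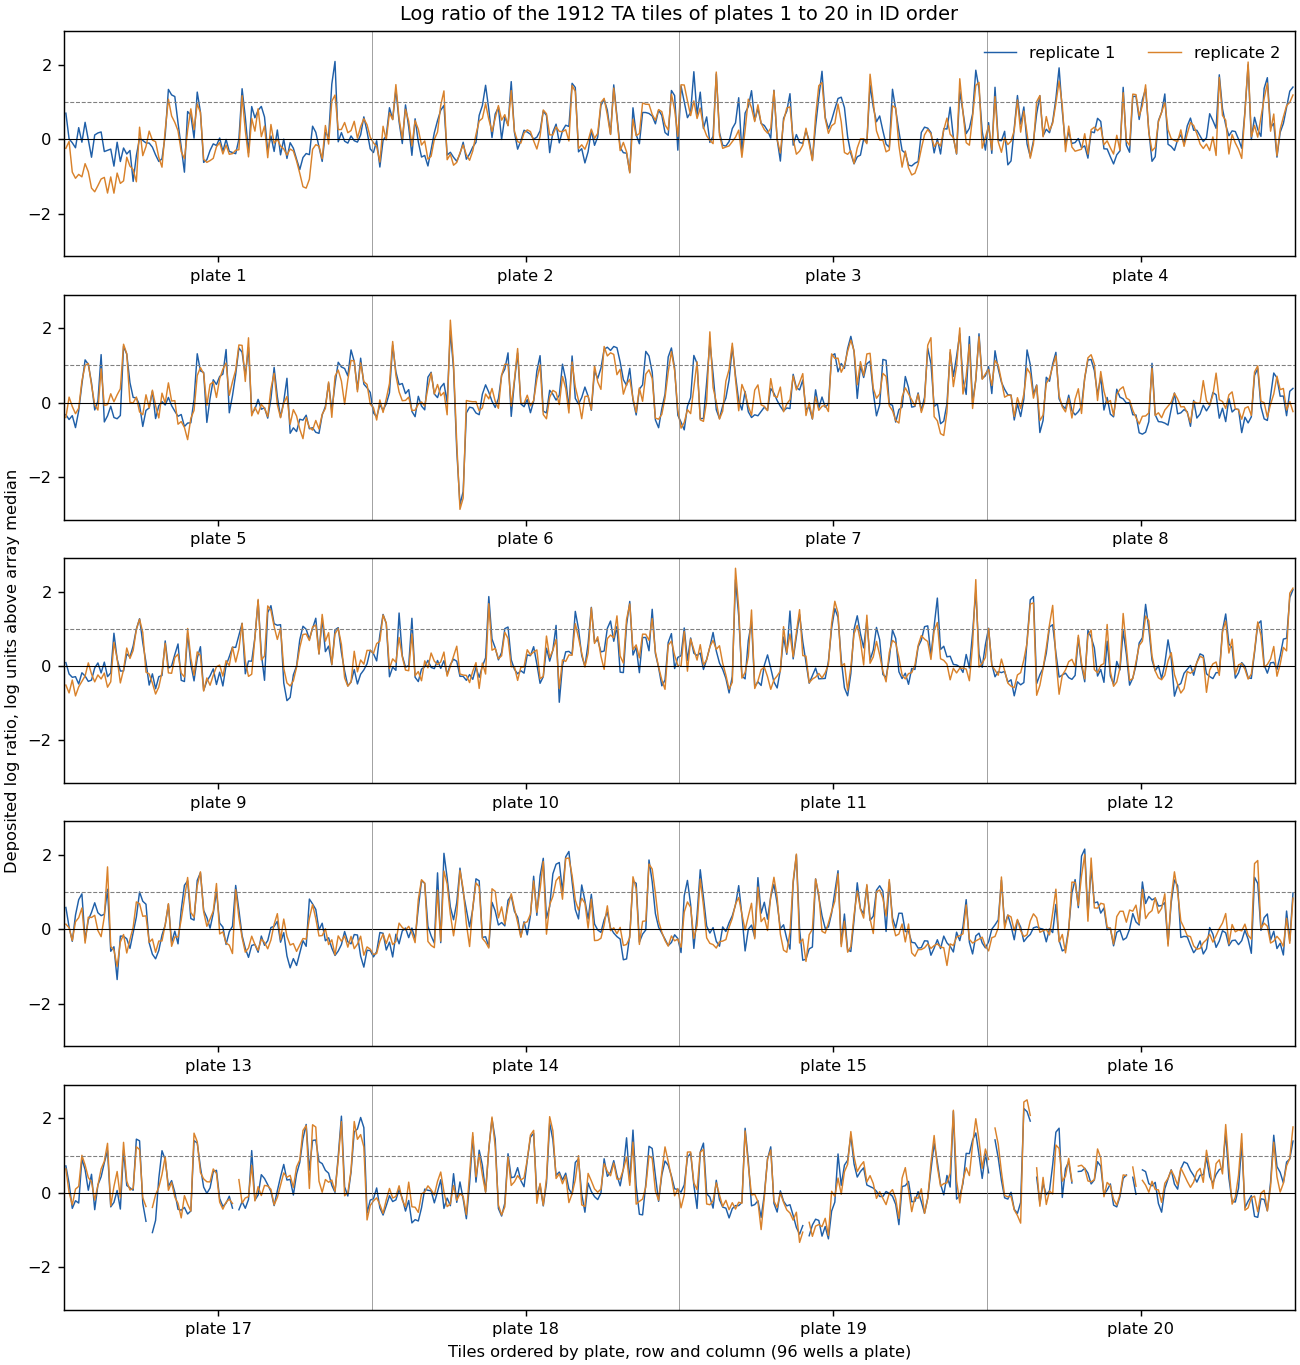
The deposited log ratio, in log units above the array median (vertical axis), of every TA tile of plates 1 to 20 in ID order (horizontal axis, 4 plates a panel), with replicate 1 in blue, replicate 2 in orange and a dashed line at 1 log unit. Narrow peaks recur in all 20 plates, a deep dip stands in plate 6, and the replicates part from each other at the start of plate 1.

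In the mean of the replicates, 14 of the 20 plates had a median above 0, and in 14 plates both replicates had one above 0. In 3 plates both replicates lay below 0. The highest was plate 20, at 0.370 in replicate 1 and 0.311 in replicate 2. The lowest was plate 1, at −0.0797 and −0.252, followed closely by plate 13, at −0.114 and −0.186. Which of these plates was lower depended on the replicate, since plate 13 was lower in replicate 1 and plate 1 in replicate 2. At the boundary the ratio came down from a high tile. The last 3 tiles of plate 20, TA20H10, TA20H11 and TA20H12, had means of 0.774, 0.914 and 1.58. The first 3 of plate 21, just outside, had means of 0.371 (TA21A01), −0.241 (TA21A02) and −0.393 (TA21A03). The median of plates 21 to 28 as a whole was −0.633 in replicate 1 and −0.536 in replicate 2.

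**Figure D2:**
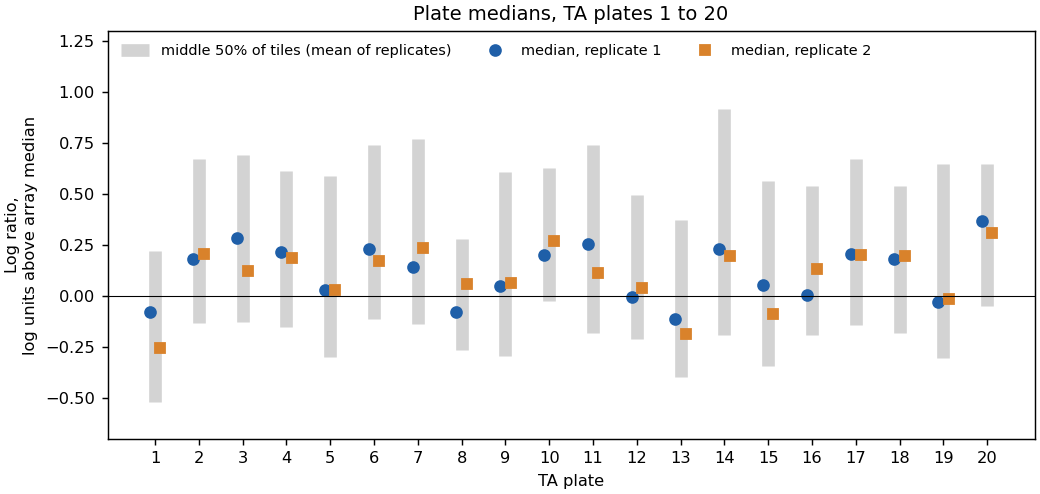
Median log ratio of each TA plate from 1 to 20 in replicate 1 (blue circles) and replicate 2 (orange squares), in log units above the array median, with grey bars for the middle 50% of the tiles' replicate means. Medians run from −0.252 in plate 1 (replicate 2) to 0.370 in plate 20 (replicate 1).

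Tiles whose mean exceeded the median by 1 log unit or more are called high tiles. There were 259 among the 1912, or 13.5%, against 10.4% of all tiles. In both replicates 212 reached 1 log unit (11.1%, against 8.56% of all tiles), of 281 that did so in replicate 1 and 239 in replicate 2. Of the tiles high in replicate 1, 75.4% were thus high in replicate 2, and the reverse share was 88.7%. At 1.5 log units or more there were 76 tiles and at 2 or more there were 13, against 636 and 72 among all 21707 tiles. High tiles occurred in every plate, from 5 in plate 1 and 6 in plate 8 to 23 in plate 14.

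The highest tile was TA11B06, at 2.32 in replicate 1 and 2.63 in replicate 2. It rose directly out of low surroundings, with the tile before it at −0.359 and the tile after it at 1.45, behind which the ratio was again −0.298. The next highest were TA20A12, at 2.26 in replicate 1 and 2.44 in replicate 2, and its neighbour TA20B01, at 2.18 and 2.50. The tile before TA20A12 had a mean of −0.539, so the mean rose from −0.539 to 2.35 from one well to the next. All 3 tiles were higher in replicate 2 than in replicate 1.

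High tiles mostly stood alone or in pairs. At consecutive wells the 259 tiles made up 178 runs, on average 1.46 tiles long. A single tile made up 111 runs (62.4%) and a pair made up 56 (31.5%), while 9 runs had 3 tiles, 1 had 4 and 1 had 5. Of the 111 single high tiles, 5 had both neighbours below the median.

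The longest run, TA06G01 to TA06G05, was a plateau with means from 1.11 to 1.47. Its first 4 tiles were above 1 in both replicates, while TA06G05 was at 1.47 in replicate 1 and 0.749 in replicate 2. By replicate 2 alone it would have 4 tiles. It was also part of a longer raised stretch, as the tile before it lay at 0.639 and the tile after it at 0.993. The run of 4, TA17H07 to TA17H10, lay near the end of plate 17 and at a higher level, with means from 1.49 to 1.79 and no value under 1.23 in either replicate. The tile after it fell to −0.638. The highest of the 9 runs of 3 was TA20A12 to TA20B02, with means of 2.35, 2.34 and 2.00. The well after it had no value used here, so its true end is not known.

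Broader raised stretches appeared when tiles called above the median were joined. They gave 266 runs, on average 2.84 tiles long. The longest, TA07D12 to TA07F01, had 14 tiles and medians of 1.05 (replicate 1) and 1.19 (replicate 2). The stretch around the plateau of plate 6, TA06F10 to TA06G09, had 12 tiles with medians of 1.01 and 0.822. A stretch of the same length in plate 14, TA14E08 to TA14F07, had medians of 1.23 and 0.861 and reached 2.00 at its top.

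The spacing from the end of a high run to the start of the next was short and uneven. Over 177 spacings the median was 6 wells, the middle 50% ran from 3 to 11, and 88 spacings (49.7%) were of 5 wells or fewer. A single tile under the cutoff separated neighbouring runs 18 times. At the other end, 23 spacings were over 20 wells and 8 were over 30. The median spacing was 5 wells without plate 1 and 24.5 wells when 1.5 log units were asked for, so it describes the cutoff as much as the profile.

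**Figure D3:**
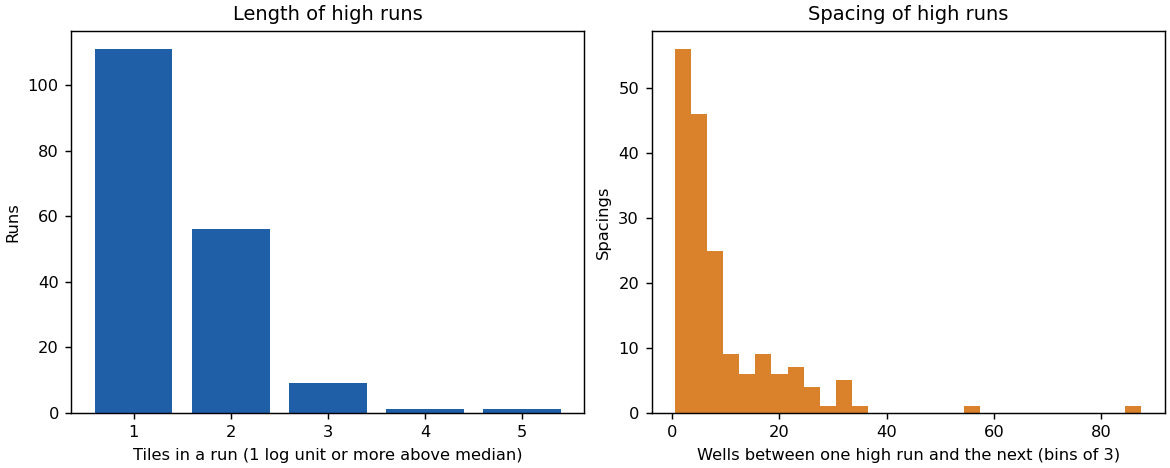
Number of high runs by their length in tiles (left) and number of spacings between one high run and the next by their length in wells, in bins of 3 wells (right), for the TA tiles of plates 1 to 20 with the mean of both replicates. Runs of 1 and 2 tiles make up 167 of the 178, and the spacings have a long tail that ends at 86 wells.

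The longest stretch without a high tile was TA08C10 to TA09B11, 86 wells from row C of plate 8 into row B of plate 9. It was not a uniformly low stretch, since its tiles ranged from −0.693 to 0.990 and their medians were −0.183 (replicate 1) and −0.0576 (replicate 2). Of its 86 tiles, 13 were called above the median and 26 below, beside shares of 33.3% and 30.9% over all tiles. It was picked for having no high tile, which bears on the count above. The next, TA13E07 to TA14B03, spanned 57 wells and lay lower, with medians of −0.336 and −0.280 and 31 tiles called below. TA15F07 to TA16A04, with 34 wells, had medians of −0.306 and −0.353 and 19 tiles called below. Each of the 3 stretches crossed from one plate to the next.

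The surroundings of a high tile were read in the replicate that had not been used to pick it. Around the 281 tiles high in replicate 1, the median in replicate 2 was 1.25 at the tile itself, 0.643 at the tile before it and 0.576 at the tile after it. At 2 wells it had fallen to 0.254 before and 0.180 after, against a median of 0.129 over all these tiles in replicate 2. Picking the 239 high tiles in replicate 2 and reading replicate 1 gave 1.36 at the tile, 0.727 and 0.622 next to it, and 0.239 and 0.212 at 2 wells. From there on the median did not fall steadily to its level over all tiles. At 6 wells after the tile it was 0.235 in the former reading and 0.278 in the latter. At 9 wells after the tile it was 0.110 and 0.126, and at 9 wells before it 0.166 and 0.129. The level over all these tiles was 0.129 for the former reading and 0.116 for the latter. The TB tiles had 0.601 at the tile after and 0.315 at 2 wells after, when picked in replicate 1. In TA plates 61 onward these medians were 0.582 and 0.226. Whether the width of the peaks differs between these stretches was not tested.

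**Figure D4:**
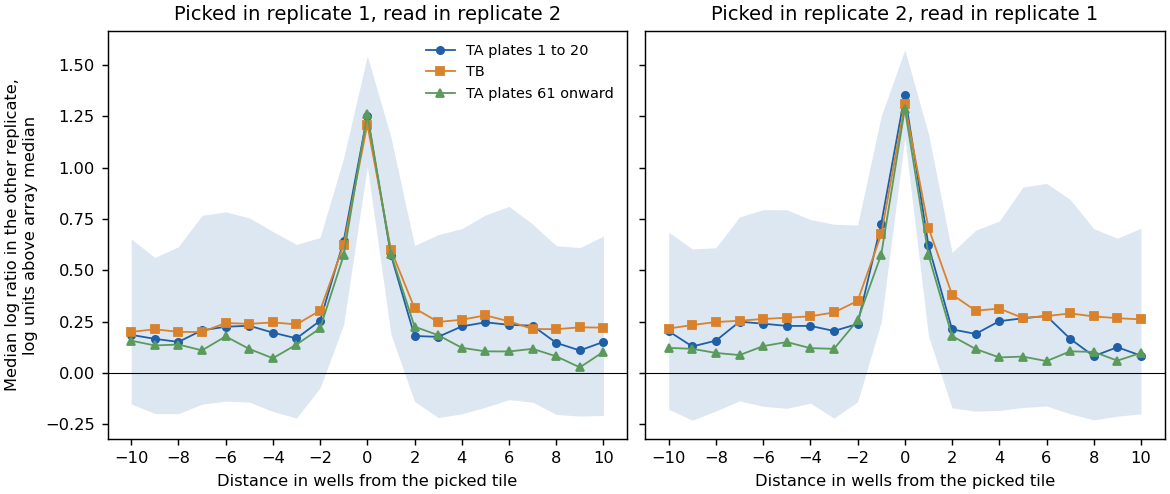
Median log ratio, in log units above the array median (vertical axis), at 10 wells to either side of tiles that were 1 log unit or more above the median in the other replicate, for the TA tiles of plates 1 to 20 (blue circles, with the middle 50% shaded), TB (orange squares) and TA plates 61 onward (green triangles). In plates 1 to 20 the median falls from 1.25 at the tile to 0.576 at the tile after it and 0.180 at 2 wells when tiles are picked in replicate 1.

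Neighbouring tiles resembled each other over a short distance only. The correlation of the mean log ratio across 1903 pairs of neighbours was 0.507, and it fell to 0.191 at 2 wells and 0.106 at 3. It did not fall further at once. It was 0.138 at 6 wells and 0.121 at 7, before it reached 0.0239 at 9. When replicate 1 of one tile was set against replicate 2 of the other, the values were 0.466 at 1 well, 0.0920 at 3, 0.115 at 6 and 0.0155 at 9. In the reverse pairing the correlation was 0.133 at 6 wells and 0.0230 at 9. The replicates correlate at 0.905 across the same tiles, so these pairings are no independent reading of the low second rise. In the TB tiles the correlation fell from 0.124 at 3 wells to 0.0843 at 6 and 0.0671 at 9, and in TA plates 61 onward from 0.189 to 0.123 and 0.114. These are correlations across tiles of the same 2 preparations, the rise is small, and whether it differs from the course in other tiles was not tested.

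Tiles far below the median were few. A mean of −1 or less was found at 9 of the 1912 tiles, or 0.471%, against 3.07% of all tiles. That contrast follows from where the plates were divided. TA plates 21 to 28 had 14.7% and TA plates 29 to 36 had 1.07%. These are 105 and 8 of the 667 such tiles of the array, so most lay elsewhere. The share was lower than here in TB (0.355%), the TC plates up to 13 (0.312%) and TA plates 61 onward (0.268%). The count was 12 in replicate 1 and 23 in replicate 2. Of these, 1 and 16 were in plate 1, so outside plate 1 the replicates had 11 and 7. Of the 9 tiles, 3 stood side by side in plate 6 and 4 in row D of plate 19.

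The dip in plate 6 held the 2 lowest tiles. TA06C04 was at −2.74 in replicate 1 and −2.87 in replicate 2, and TA06C05 was at −2.39 and −2.57. TA06C03, before them, had a mean of −1.19. The dip lay directly behind a peak, since TA06C01 was at 1.93 and 2.21 and TA06C02 at 0.899 and 1.02. From TA06C01 to TA06C04 the mean thus fell from 2.07 to −2.81 within 3 wells, and at TA06C06 it was back at −0.111. Both replicates followed this course with a gap of 0.332 or less at each of the 6 tiles. No other member had a mean of −1.5 or less.

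The low stretch in plate 19 was shallower and wider. All 11 tiles of row D with a value had a mean below the median, though TA19D12 was at 0.0390 in replicate 2. The median of the row was −0.907 in replicate 1 and −0.896 in replicate 2. Its lowest tile, TA19D02, was the third lowest of the members, at −1.11 in replicate 1 and −1.33 in replicate 2. The means then stayed between −1.19 and −0.797 from TA19D05 to TA19D11, a run of 7 tiles called below the median, before TA19E02 reached 0.718. The well of TA19D04 had no tile used here.

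Among the 20 plates the preparations differed most in plate 1. Taken tile by tile as replicate 1 minus replicate 2, the median difference was 0.169 log units in plate 1, while the medians of plates 2 to 20 lay between −0.0961 and 0.0740. Over the whole array 5 plates had a larger median difference, up to 0.268. The SD of the difference within plate 1 was 0.464, against 0.203 to 0.299 in plates 2 to 20 and at most 0.371 in any of the other 230 plates of the array with 20 tiles or more. In plate 1 the replicates differed by 0.5 or more at 30 of 96 tiles, or 31.3%, against 6.56% of all tiles. Replicate 1 was the higher at 28 of the 30. The next highest count among the other plates was 23. The correlation of the replicates across the plate's tiles was 0.715, against 0.888 to 0.951 in plates 2 to 20. Some plates elsewhere were lower still, down to 0.475. Plate 1 was thus the highest of all 231 plates in the SD of the difference and in the count of differing tiles, but not in the median difference, and it was not the lowest in the correlation. With 1 value per preparation and tile, a difference between preparations has no test here.

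The difference was concentrated at the start of the plate. In rows A and B the median was −0.163 for replicate 1 and −1.01 for replicate 2, and replicate 1 was the higher at 22 of 24 tiles. In rows C to H the medians were −0.0473 and −0.0789. The median difference was 0.824 in rows A and B and 0.0773 in rows C to H. Without rows A and B the correlation of the replicates rose from 0.715 to 0.840, which was still below that of every plate from 2 to 20.

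From TA01A03 to TA01B07 the difference was 0.588 or more at 17 consecutive tiles. No longer run of differences of 0.5 or more in 1 direction was found among the 1255 such runs on the array. The next longest, in plate 23 of the TA series, had 6 tiles, and 3 runs in all had 5 or more. Over the 17 tiles replicate 1 ranged from −0.724 to 0.453 and replicate 2 from −1.45 to −0.657. Replicate 1 thus lay on both sides of the array median, with 5 tiles above 0, while all 17 were below it in replicate 2. The largest difference of all members was at TA01A10, at 0.113 in replicate 1 and −1.41 in replicate 2. TA01A11 stood at 0.168 and −1.25, TA01A12 at 0.194 and −1.07, TA01A05 at 0.310 and −0.946, and TA01B02 at −0.300 and −1.45.

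The run ended at TA01B08, which was at −0.397 in replicate 1 and −0.484 in replicate 2. The gap did not close there for good. The difference was 0.421 at TA01B09 and 0.704 at TA01B11, where replicate 2 was at −1.14, and −0.316 at TA01B10 between them. A shorter run of the same kind, TA01G03 to TA01G06, had 4 tiles with medians of −0.400 and −1.18. At TA01H01 the difference was 0.902 at a high tile, with 2.09 in replicate 1 and 1.19 in replicate 2. Row H as a whole went the other way. Its median difference was −0.201, with replicate 1 the higher at 2 of 12 tiles, while that of row G was 0.264. Outside plate 1 the largest differences among the members were 1.21 at TA03E04, where replicate 1 was at 0.850 and replicate 2 at −0.358, and 0.990 at TA04F10. Their neighbours did not form a run of this length.

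Over the same wells pooled from the other member plates the difference was near 0. In rows A and B of plates 2 to 20 the median difference was 0.00292 and 6.61% of 454 tiles differed by 0.5 or more. In rows A and B of plate 1 of the TB series it was 0.0216, and in those of plate 1 of the TC series 0.0424, with 1 of 24 tiles at 0.5 or more in each. Over the other 229 plates with 10 tiles or more in rows A and B, the median difference of these rows ran from −0.249 to 0.369, the highest in plate 64 of TB, where the run TB64A03 to TB64A07 lay. Nor was it found at the start or end of the other long series. Among the first 20 tiles of TA 18 differed by 0.5 or more, against 2 or fewer among the last 20 of TA and the first and last 20 of TB and of TC. The cause of the difference was not tested, and the identical dye-swap columns hold no separate reading of either array.

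The calls at the start of plate 1 drew more on replicate 2 than on replicate 1. In rows A and B 20 of 24 tiles were called below the median and none above, among them the longest run called below of all members, TA01A08 to TA01B11 with 16 tiles. Its median was −0.302 in replicate 1 and −1.09 in replicate 2. All 20 called tiles lay 0.281 or more below the median in replicate 2 and 9 of them did so in replicate 1, where 4 lay above 0. The next longest, TA15G01 to TA15H02 with 14 tiles, had medians of −0.409 and −0.495, and TA05F11 to TA05G09 with 11 tiles had −0.679 and −0.584, so these were low in both replicates.

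**Figure D5:**
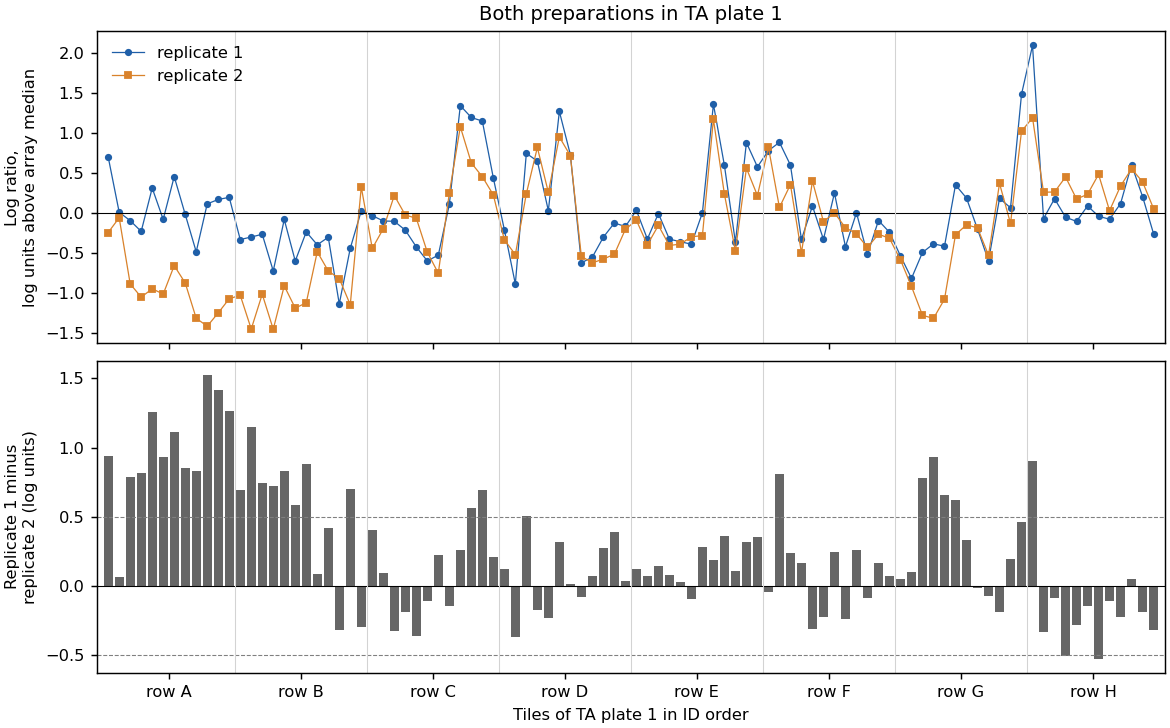
The 96 tiles of TA plate 1 in ID order, with the log ratio in replicate 1 (blue circles) and replicate 2 (orange squares) in log units above the array median (top), and replicate 1 minus replicate 2 (bottom, dashed lines at 0.5 and −0.5). In rows A and B replicate 2 has a median of −1.01 and replicate 1 one of −0.163, and from row C on they differ by 0.5 or more at 11 of 72 tiles.

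Beside other stretches of the array, these plates had a share and spacing of high tiles near those of the TB series. High tiles made up 13.5% of both, the median spacing of high runs was 6 wells in both, and the mean length of a high run was 1.46 tiles here and 1.43 in TB. Over the whole array the share was 10.4%, the median spacing also 6 wells and the mean length 1.42 tiles. The spacing and run length are thus not particular to these plates and TB. TA plates 61 onward had 8.92% high tiles and a median spacing of 8 wells, and TA plates 21 to 28 had 3.37% and 25.5 wells. The share of high tiles in plates 1 to 20 was below that of the TC plates up to 13, at 15.8%. The neighbour correlation was 0.507 here, 0.504 in TA plates 61 onward, 0.468 in TB and 0.730 in TA plates 21 to 28. Because the plates were divided by these values and all tiles share the same 2 preparations, no test was made of these differences.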

How the data were processed

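The deposited values are 1 column of scores per array, which are log ratios of 2 channels. No source used here gives their log base, direction, normalization or software. Before centring the medians were −0.737 (replicate 1) and −0.925 (replicate 2). Of 21800 rows, 93 had no value and were left out. The 2 columns of a preparation were averaged and centred on the median of all tiles. The order followed plate, row and column. Of the 1920 wells of plates 1 to 20, 8 had no tile used here, and a run ended there. Tile means were compared with 0 in limma 3.58.1 under R 4.3.3 (lmFit, eBayes, 1 residual degree of freedom, 134 prior), adjusted by Benjamini-Hochberg over all 21707 tiles. The fit was tested on simulated data. Runs and correlations used Python 3.11.15 and numpy 2.4.6. With 134 prior and 1 residual degree of freedom, a tile's p-value rests mostly on a variance pooled over all tiles. P-values cover no more than the spread between these 2 preparations, and the number of preparations limits precision. The named tiles are the 3 highest and lowest members, those of the 3 longest high runs, the 5 largest differences in plate 1 and 2 elsewhere, and 3 on each side of the end of plate 20. Other tiles were named after their values were seen. The members, cutoffs and tests were chosen with earlier results of these data known.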

Additional observations from a re-analysis of the deposited data

How the results depend on the processing

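Levels and counts depended on the zero point. With values as deposited the median of the plates was −0.712, with 184 tiles called above and 1344 below, and 19 and 569 at 1 log unit or more above and below. That setting lowers the median of all tiles by 0.83. With each replicate centred on its mode the median was 0.371, with 1056 tiles called above and 109 below. In that setting 392 and 2 tiles were 1 log unit or more above and below. High runs then had a mean length of 1.71, a longest of 8 and a median spacing of 4. A test against a log2 of 1.5 (treat), a fold only if the base is 2, called 306 above and 13 below. Robust eBayes and scaling by the median absolute deviation moved none of the counts by over 1.5 times.

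Without plate 1 the median was 0.134, the median spacing 5 and the neighbour correlation 0.496, and with plate medians taken off that correlation was 0.490. High runs had a mean length of 1.70, a longest of 8 and a median spacing of 4 at 0.75 or more. At 1.5 or more there were 61 runs, with a mean length of 1.25, a longest of 3 and a median spacing of 24.5. Asking for both replicates gave a mean length of 1.41 and a median spacing of 7. Allowing 1 tile under the cutoff inside a run gave a mean length of 1.73 and a longest of 8.

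Leaving out 1 replicate gave a median from 0.116 to 0.129, 239 to 281 high tiles and 12 to 23 low ones. It gave 163 to 186 high runs with a mean length of 1.47 to 1.51, a longest of 4 to 7 and a median spacing of 5 to 6, and a neighbour correlation of 0.494 to 0.505. The limma counts could not be made so, as no residual degrees of freedom remain.

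The difference in plate 1 was 0.265 as a mean over tiles, 0.357 with values as deposited and 0.0773 without rows A and B. In plates 2 to 20 it was −0.00381, and 0.00104 as a mean, 0.00877 with centring on these plates' own median and 0.184 as deposited, so its sign has no weight. The correlation of the replicates in plate 1 was 0.840 without rows A and B and 0.687 by Spearman. The run of 17 tiles had 15 to 17 under the alternatives run, which were chosen after seeing the data, as were those on rows A and B. Each log ratio sets IP against input of the same preparation, so that pairing is already in the values. No further paired analysis was possible because the design holds 1 group.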
